A study of Caenorhabditis elegans with 2 samples.

Results

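The vitellogenin genes vit-1 to vit-6 of *Caenorhabditis elegans* were examined for binding of ATTF-5, which belongs by its name to the AT-hook factors. They were chosen by name and all 6 were found, among 19973 protein-coding nuclear genes of the Ensembl annotation. Each gene was given a window from 1000 bp upstream of its annotated 5′ end to its end, and the summits of ChIP-seq regions in that window were counted. The data come from chromatin immunoprecipitation of whole young adults aged 66 hours, males and females pooled, which had been synchronized by starving bleached L1 larvae. The strain, OP724, carries the mutation unc-119(tm4063) and the integrated transgene wgIs724, which holds attf-5 fused at its C-terminus to TY1, EGFP and 3xFLAG together with unc-119(+), so the tagged protein comes from the transgene. The immunoprecipitation used anti-GFP, and the promoter that drives the transgene is not named in the labels. The 2 biological replicates carry the numbers 1 and 3 and form a single group. With no second condition no test between groups was possible, and with no RNA data used here the intestine of these animals could not be checked by its marker genes.

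Vitellogenins are the lipid-carrying yolk proteins of egg-laying animals. In *C. elegans* the adult hermaphrodite intestine makes them in large amounts and secretes them into the body cavity, and growing oocytes take them up through the receptor RME-2. The vit-1 to vit-5 genes encode the larger yolk polypeptides, and the product of vit-6 is cut into a pair of smaller ones. Their short promoters are known for a pair of elements needed for full expression, TGTCAAT (vitellogenin promoter element 1) and CTGATAA (element 2). The second contains the core of a GATA site, the kind of site bound by the intestinal factor ELT-2. Because whole worms were used, strong binding in a few cells and weak binding in many cannot be told apart.

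The promoter of vit-2 is shown because the strongest region of the family in the pooled list and in replicate 1 lay at its 5′ end. That of vit-6 is shown because this gene had the most regions over the 3 longer lists and is the sole member away from chromosome X. Both run from 250 bp upstream of the annotated 5′ end to 50 bp inside, 5′ to 3′ on the coding strand, from the RefSeq genome of build WBcel235. The vit-2 promoter is at chrX:5100792-5101091, plus strand, and that of vit-6 at chrIV:8260907-8261206, plus strand. Capitals mark the elements TGTCAAT and CTGATAA on either strand.
vit-2 promoter: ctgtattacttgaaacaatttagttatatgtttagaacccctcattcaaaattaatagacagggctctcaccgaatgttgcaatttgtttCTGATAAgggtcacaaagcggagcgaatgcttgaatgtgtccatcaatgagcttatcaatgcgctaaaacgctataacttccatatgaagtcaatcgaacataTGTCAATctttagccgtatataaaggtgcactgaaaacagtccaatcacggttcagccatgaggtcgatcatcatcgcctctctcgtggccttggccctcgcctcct
vit-6 promoter: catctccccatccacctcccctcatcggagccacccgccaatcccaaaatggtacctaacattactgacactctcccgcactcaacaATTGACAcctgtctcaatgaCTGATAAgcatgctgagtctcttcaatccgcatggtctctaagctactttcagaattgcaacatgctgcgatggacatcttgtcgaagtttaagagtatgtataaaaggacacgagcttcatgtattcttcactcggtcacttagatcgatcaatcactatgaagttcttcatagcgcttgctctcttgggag

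The first bases of vit-3, vit-4 and vit-5 are shown because their near identity bears on what a peak list can report there. Each stretch runs from 60 bp upstream to 50 bp inside the annotated 5′ end, on the coding strand, at chrX:3572500-3572609 (minus), chrX:3563916-3564025 (minus) and chrX:3403411-3403520 (plus). Capitals mark, in vit-3 and vit-4, a run of 100 bases that these genes share without a difference, and in vit-5 a run of 31 bases it shares with vit-3. These are the longest shared runs within the printed bases. The first reaches the last printed base of vit-3 and the second that of vit-5, so both may go on past it. Lower case after the run in vit-4 therefore does not mark a difference.
vit-3 proximal: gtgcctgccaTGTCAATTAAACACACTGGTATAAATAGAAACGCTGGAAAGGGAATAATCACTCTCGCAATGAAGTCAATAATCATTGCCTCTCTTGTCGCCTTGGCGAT
vit-4 proximal: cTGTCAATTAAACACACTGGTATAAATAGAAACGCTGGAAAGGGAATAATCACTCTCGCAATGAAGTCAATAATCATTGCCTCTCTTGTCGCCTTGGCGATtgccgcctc
vit-5 proximal: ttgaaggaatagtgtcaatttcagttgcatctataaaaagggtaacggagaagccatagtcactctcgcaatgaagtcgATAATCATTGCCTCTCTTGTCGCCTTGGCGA

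All 6 promoters of 300 bp held TGTCAAT, and 5 of them held CTGATAA as well. The exception was vit-3, which had TGATAA, the shorter core, at −88 bp. Across 19973 protein-coding promoters of this length, 5.77% held TGTCAAT, 8.15% held CTGATAA and 0.506% held both, on either strand. In vit-2 the element CTGATAA began at −160 bp and TGTCAAT at −57 bp, where 0 is the first annotated base. CTGATAA contains TGATAA, so these counts overlap, and a match describes letters and not a bound site. Their A+T content was 65.7% for vit-1, 58% for vit-2, 64% for vit-3, 61.3% for vit-4, 60% for vit-5 and 54% for vit-6, against a median of 65.7% over all promoters (quartiles 62 and 68.7%), and 97% of promoters were at least as AT-rich as that of vit-6.

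The 5 genes on X fall into 2 groups of near copies. On X, vit-5 (WBGene00006929, 3403471 to 3408603, plus strand), vit-4 (WBGene00006928, 3558769 to 3563965, minus) and vit-3 (WBGene00006927, 3567355 to 3572549, minus) form the left group, with vit-2 (WBGene00006926, 5101042 to 5106169, plus) and vit-1 (WBGene00006925, 7727889 to 7733168, plus) farther right. The gene vit-6 (WBGene00006930) is on IV, 8261157 to 8266459, plus strand. Coordinates are in ce11, which is WBcel235. The windows were 6128 to 6303 bp long, and 79.1% of their bases were coding, against 33.8% in the 1315 protein-coding genes with windows of like length (5516 to 6930 bp).

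The peak lists made by the authors fall into 4 kinds. The thresholded list holds 3331 regions that passed their reproducibility threshold, with signals from 89.6 to 2844. The pooled list and the list of replicate 1 hold 30000 regions each and that of replicate 3 holds 28299. The authors named these last 3 lists as peaks and background, for use as input to the reproducibility step, and their lowest −log10 q was 0.0602, 0.0608 and 0.0177. A region in them is therefore not by itself evidence of binding. Signal is the authors' enrichment value per region. The thresholded peaks named below carried their pooled value, such as 419.7 in both lists at lin-28, where replicate 1 had 217.1 and replicate 3 had 203.9. Whether the replicate lists share a scale with these is not stated. The read depth behind the signal is unknown here.

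No vitellogenin gene held a thresholded peak. The count was 0 of 6 genes, where 15% of all protein-coding genes and 20.7% of those with windows of like length held such a summit. Among the 242 genes of like length on X it was 15.3%. With 6 genes a count of 0 lies near these backgrounds, so it does not set the family apart. The same was true near the 5′ ends. From 1000 bp upstream to 200 bp downstream, 0 of 6 genes had a thresholded summit, against 12.3% of all genes. That span lies within the window, so its count of 0 follows from the first.

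Regions below the threshold were listed at nearly every member. The pooled list had summits in 5 of 6 windows (background 55.5% of all genes, 72.6% of genes of like length and 65.7% of those on X), 19 in all. Replicate 1 also had summits in 5 of 6 (57.3%, 75.4% and 69.8%), 20 in all, and replicate 3 in 6 of 6 (59.9%, 76.6% and 76.9%), 17 in all. The shares of genes with any summit are close to those of genes of this length. The mean number per gene was higher, at 3.17 pooled, 3.33 in replicate 1 and 2.83 in replicate 3, against 2.14, 2.14 and 1.95 in genes of like length. This was not shared by all members. In replicate 1, vit-2 and vit-6 had 7 each and vit-5 had 4, but vit-1 and vit-4 had 1 each and vit-3 had 0. In replicate 3, vit-6 had 6 and vit-2 had 5, and the others had 1 or 2. In the pooled list vit-6 had 7, vit-1 and vit-2 had 4 each, vit-5 had 3, vit-4 had 1 and vit-3 had 0. Near the 5′ ends, the pooled list had summits at 4 of 6 genes (38.6% of all genes), replicate 1 at 4 (38.7%) and replicate 3 at 3 (40.0%).

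The regions were spread around the middle of their lists. In the pooled list the 19 signals ran from 22.5 to 72.5 with a median of 33.8, and 9 lay above the median of the whole list, 34.4. In replicate 1 the 20 signals ran from 14.4 to 54.8 with a median of 18.3, and 8 lay above the list median of 22.8. In replicate 3 the 17 ran from 13.6 to 33.8 with a median of 19.9, and 10 lay above the list median of 19.2. A −log10 q of at least 2 was reached by 1 pooled region, 1 of replicate 1 and 2 of replicate 3.

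**Figure D1:**
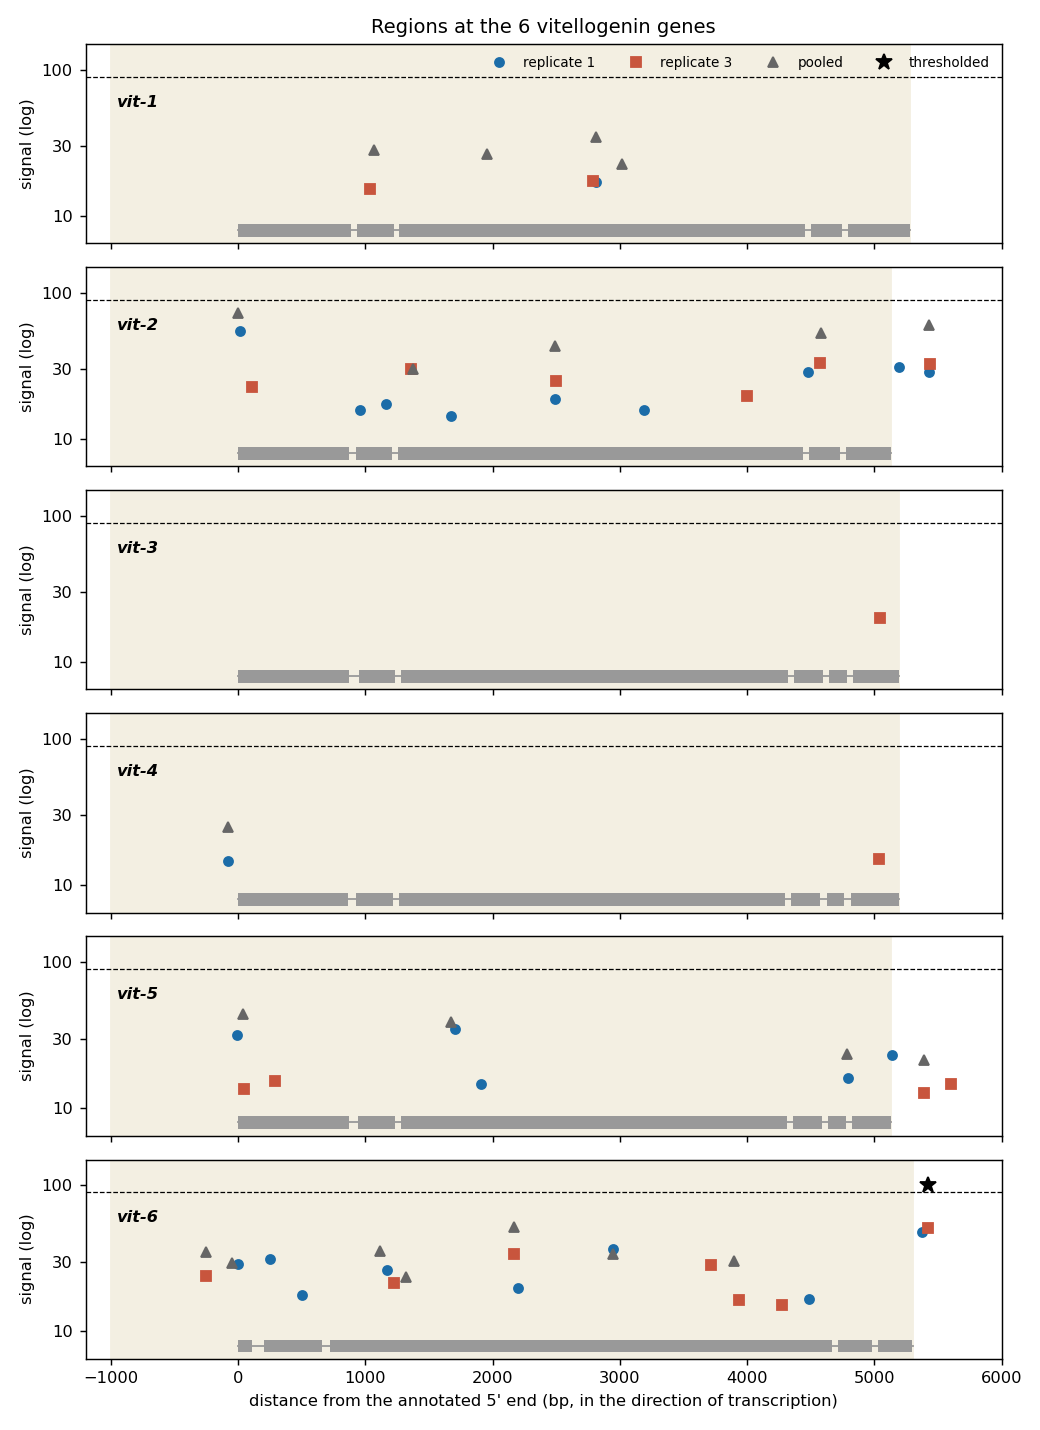
Signal of each listed region (log axis, the authors' units) against the distance of its summit from the annotated 5′ end, for the 6 genes. Grey boxes are exons, the shaded span is the window, and the dashed line is the lowest signal of the thresholded list, 89.6, which is on the pooled scale; the star past the end of vit-6, which hides the pooled symbol of the same value, is the single thresholded peak in view, at 100.1.

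In the pooled list and in replicate 1, the strongest region of the family lay at the start of vit-2. In replicate 3 other regions of the family were stronger, the highest being 33.8 at 2164 bp of vit-6. Replicate 1 had a signal of 54.8 with its summit at 13 bp inside the gene, rank 2934 of 30000. Replicate 3 had 22.7 at 107 bp, rank 10405 of 28299. The pooled summit lay on the annotated 5′ end itself with a signal of 72.5, rank 4488, and 57 bp downstream of the first base of the TGTCAAT element printed above. So the site was in the top 9.78% of the list in replicate 1 and in the top 36.8% in replicate 3. Its pooled signal stayed under the 89.6 of the weakest thresholded peak.

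The body of vit-2 carried further regions. Replicate 1 listed 7 summits in its window, replicate 3 listed 5 and the pooled list 4. In genes of like length the median was 2 in each list, and 3.19% of them had 7 or more in replicate 1, 8.97% had 5 or more in replicate 3 and 22.9% had 4 or more in the pooled list. The pooled region near the 3′ end, in exon 4 at 4583 bp, had a signal of 52.9, with 28.8 in replicate 1 at 4481 bp and 33 in replicate 3 at 4574 bp. One in exon 3 at 2493 bp had 43.3 pooled, 18.9 in replicate 1 and 24.9 in replicate 3. Past the gene end, at 305 to 306 bp, these 3 lists held another, with 60.7 pooled, 28.6 in replicate 1 and 32.5 in replicate 3, which lies in the neighbouring gene C42D8.9.

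The closest relative of vit-2, vit-1, had fewer regions in each replicate list but as many in the pooled list, and its highest signal was lower in all 3. Over vit-1, whose sequence matches vit-2 at 93.2% of aligned bases, the pooled list had 4 summits with signals from 22.5 to 34.5, replicate 1 had 1 (17.1) and replicate 3 had 2 (15.4 and 17.4). All lay in coding exons 2 and 3, and none within 1000 bp upstream. The vit-1 promoter window was fully single-copy, as was that of vit-2. No region was listed in this window of vit-1, where 38.6% of all genes had a pooled summit. Why none was listed was not tested.

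The near-identical genes vit-3 and vit-4 had the fewest regions. In vit-3 the pooled list and replicate 1 had none, and replicate 3 had 1, in the last exon at 5044 bp with a signal of 19.9. In vit-4 the pooled list had 1 at −81 bp (25.2), replicate 1 had 1 at −78 bp (14.7, rank 29073 of 30000) and replicate 3 had 1 at 5036 bp in the last exon (15). No summit of replicate 1 in these windows had one of replicate 3 within 100 bp.

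The third gene of the left group on X, vit-5, had more. Replicate 1 listed 4 summits, with signals of 31.9 at −10 bp, 34.8 at 1707 bp, 14.7 at 1908 bp and 16.2 at 4791 bp. Replicate 3 listed 2, with 13.6 at 46 bp and 15.5 at 286 bp. The pooled list had 44.1 at 36 bp, 39.0 at 1676 bp and 23.5 at 4788 bp. The region at the 5′ end was thus found in both replicates, but in replicate 3 it was among the weak ones, at rank 24575 of 28299, and the region at 1707 bp was listed in replicate 1 without a counterpart in replicate 3.

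Counted over these 3 lists, the vit-6 window held the most regions. Replicate 1 listed 7 summits, replicate 3 listed 6 and the pooled list 7, and 3.19%, 4.33% and 3.42% of genes of like length had as many or more. The strongest pooled one, in exon 3 at 2165 bp, had a signal of 52.1, with 19.9 in replicate 1 at 2197 bp and 33.8 in replicate 3 at 2164 bp. The highest of replicate 1 was 36.5, at 2943 bp, where replicate 3 had no summit within 100 bp. At the 5′ end the replicates differed in place, with 28.8 at −5 bp and 31.2 at 252 bp in replicate 1 and 24.0 at −250 bp in replicate 3. The highest value of each list at vit-6 was close to the median best value of like genes that had a summit: 52.1 against 53.8 pooled, 36.5 against 33.5 in replicate 1 and 33.8 against 27.6 in replicate 3.

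**Figure D2:**
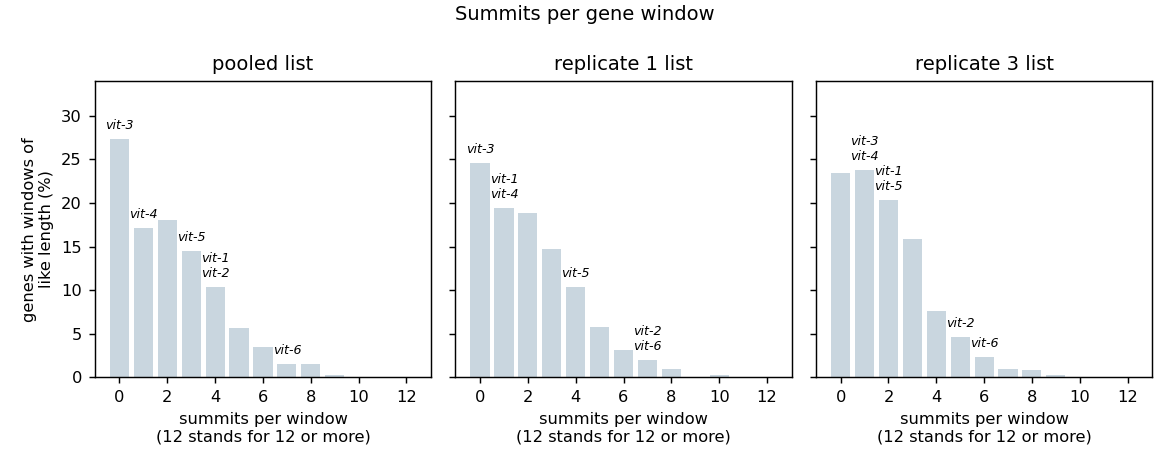
Share of the 1315 protein-coding genes with windows of like length (y axis, %) by the number of summits in the window (x axis), in 3 peak lists, with each vitellogenin gene named above the bar of its own count. The gene vit-6 sits at 7, 7 and 6 summits and vit-3 at 0, 0 and 1.

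A thresholded peak lay just past the end of vit-6, outside the window. It spanned chrIV:8266363-8266786 with a signal of 100.1 (rank 2843 of 3331) and its summit 116 bp past the gene end. Replicate 1 had 48.0 at a summit 43 bp away and replicate 3 had 51.3 at 1 bp. The summit falls between vit-6 and K07H8.8, which is transcribed toward it and ends 69 bp farther on, and the peak covers the last 97 bp of vit-6 and 143 bp of K07H8.8. A summit within 500 bp past the gene end with none in the window was found at 2% of all genes. With windows extended to 500 bp past the end, 1 of 6 vitellogenin genes held a thresholded summit, against 17.0% of all genes and 22.1% of those of like length.

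The sequence between vit-6 and K07H8.8 is shown because it holds the summit of this peak. It runs over chrIV:8266460-8266643 on the plus strand, which is the coding strand of vit-6. Capitals mark the longest word that occurs together with its reverse complement, an inverted pair of 16 bases each with 87 bp between them, and the summit is base 116 of the 184.
vit-6 downstream: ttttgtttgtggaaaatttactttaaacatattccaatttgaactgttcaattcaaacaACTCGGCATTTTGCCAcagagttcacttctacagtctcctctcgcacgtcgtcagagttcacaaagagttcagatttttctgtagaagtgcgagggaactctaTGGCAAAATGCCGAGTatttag

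Every 50-base word of that stretch was single-copy in the genome. A+T made up 53.5% of the bases from 50 bp before to 50 bp after the summit, the same as the median of all thresholded peaks, 53.5% (quartiles 47.5 and 58.4%).

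Summits at the vitellogenin genes lay mostly in coding exons. The share was 14 of 19 pooled summits (73.7%), 15 of 20 of replicate 1 (75%) and 16 of 17 of replicate 3 (94.1%), where 79.1% of the window bases were coding. In genes of like length, 33.6%, 33.4% and 35% of summits were in coding sequence, which was 33.8% of their bases. Per kb of coding sequence there were 0.476 pooled summits, 0.509 of replicate 1 and 0.543 of replicate 3 at the vitellogenin genes, and 0.346, 0.345 and 0.329 at genes of like length. In the thresholded list, 1.90% of the summits at genes of like length were in coding sequence. The summits were also lower in A+T than those of the lists they came from, over the same span, with a pooled median of 51.5% (57.4% over the whole list), 53.0% for replicate 1 (58.4%) and 51.5% for replicate 3 (58.4%). The high coding content of these windows moves with this difference, and its part was not tested.

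The replicates shared 7 summit pairs, at 4 of the genes. Of the 20 summits of replicate 1, 7 had one of replicate 3 within 100 bp (35%), and of the 17 of replicate 3, 7 had one of replicate 1 (41.2%). Over whole lists the shares were 33.6% and 35.6%, and 27.5% and 27.2% among regions in the same range of signal. There were 3 pairs at vit-2, 2 at vit-6, 1 at vit-1 and 1 at vit-5, with summits 8 to 94 bp apart, and none at vit-3 or vit-4. Over the pairs, the median log2 ratio (replicate 1 over replicate 3) was −0.03, and over all 10086 matched summits it was 0.19, with an SD of 0.62.

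Both pairs at 5′ ends had the higher signal in replicate 1, and most pairs in gene bodies had it in replicate 3. At vit-2 the 5′ pair had 54.8 in replicate 1 and 22.7 in replicate 3, a log2 ratio of 1.27, and at vit-5 it had 31.9 and 13.6, a log2 ratio of 1.23. These lie at percentiles 95.6 and 94.8 of all matched ratios. Of the 5 pairs in gene bodies, 4 had the higher signal in replicate 3, the farthest at 2197 bp of vit-6 (19.9 and 33.8, log2 ratio −0.76). The fifth, at 1167 bp of vit-6, had 26.2 and 21.4. This split was noticed after the values were seen, and with 2 replicates it has no test. It also rests on the matching distance. The summits of the 5′ pairs were 94 bp (vit-2) and 56 bp (vit-5) apart, so matching within 50 bp leaves pairs in gene bodies only. The vit-1 pair was nearly even, with 17.1 in replicate 1 and 17.4 in replicate 3 (log2 ratio −0.03).

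**Figure D3:**
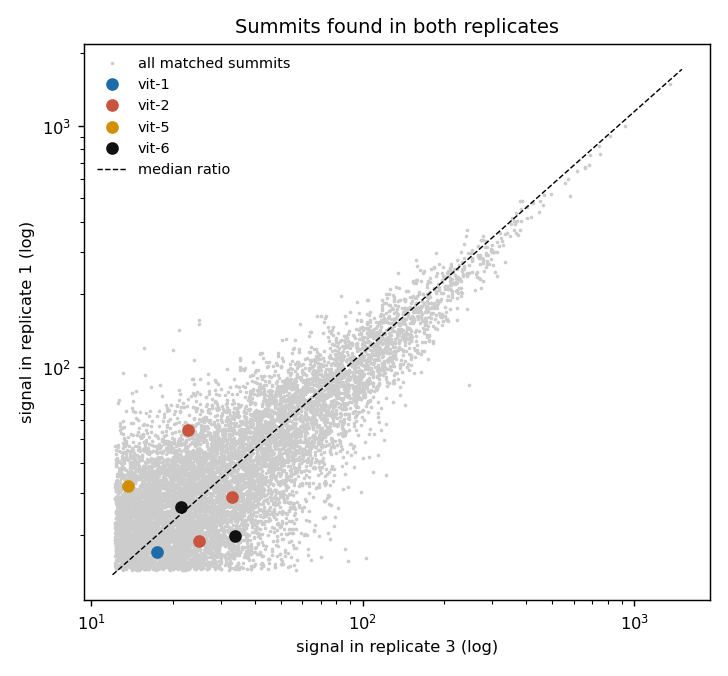
Signal in replicate 1 (y axis, log) against signal in replicate 3 (x axis, log) at summits within 100 bp of each other, all 10086 in grey and the 7 at vitellogenin genes in colour; the dashed line is the median ratio. The 5′ pairs of vit-2 and vit-5 lie above the line, and 4 of the other 5 below it.

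Sequence shared within the family was measured because reads from identical stretches cannot be placed. Pairwise identity over aligned bases was 98.1% between vit-3 and vit-4, 96.9% between vit-3 and vit-5, 97.4% between vit-4 and vit-5 and 93.2% between vit-1 and vit-2. Between these groups on X it was 71.3 to 72.4%, and with vit-6 no more than 67.1%. Words of 50 bases that occur once in the genome made up 33.2% of the vit-4 window, 37.1% of vit-3, 59.0% of vit-5, 89.0% of vit-2, 89.3% of vit-1 and 100% of vit-6, where the median over all genes was 100%. Only 2.31% of genes fell below 50%. The longest stretch with no single-copy word was 1756 bp in vit-4 and 1277 bp in vit-3, and 123 bp in both vit-1 and vit-2.

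In the pooled list, vit-3 and vit-4, low in single-copy content, had the fewest regions, and the gene with the most single-copy content had the most. Between vit-3 and vit-4 the order was the other way, as vit-4 had the lower content. The genes with the least, vit-3 and vit-4, had 0 and 1 pooled summits, and vit-6, with all of its window single-copy, had 7. In replicate 1, vit-1 had as few as vit-4 (1) and vit-2 as many as vit-6 (7). In replicate 3, vit-3 and vit-4 had 1 each and vit-6 had the most, 6. Of the 14 genes of like length below 50% single-copy, 3 had a pooled summit (21.4%), 2 one of replicate 1 (14.3%) and 4 one of replicate 3 (28.6%). Of the 1301 others, 73.2%, 76% and 77.1% did. The 14 include vit-3 and vit-4. The gene vit-4 is among those counted in all 3 lists and vit-3 in replicate 3, so this is not a separate background for them. Per kb of single-copy words the pooled list had 1.12 summits in vit-6, 0.836 in vit-5, 0.739 in vit-2, 0.719 in vit-1, 0.489 in vit-4 and 0 in vit-3, against a median of 0.321 (quartiles 0 and 0.551). The replicate lists did not keep this order. In replicate 1 the values, in the same gene order, were 1.12, 1.11, 1.29, 0.18, 0.489 and 0 (median 0.325). In replicate 3 they were 0.959, 0.557, 0.924, 0.359, 0.489 and 0.438 (median 0.309). The labels do not say how reads with several placements were treated in peak calling, so a missing region at vit-3 and vit-4 and one that could not be seen cannot be told apart.

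**Figure D4:**
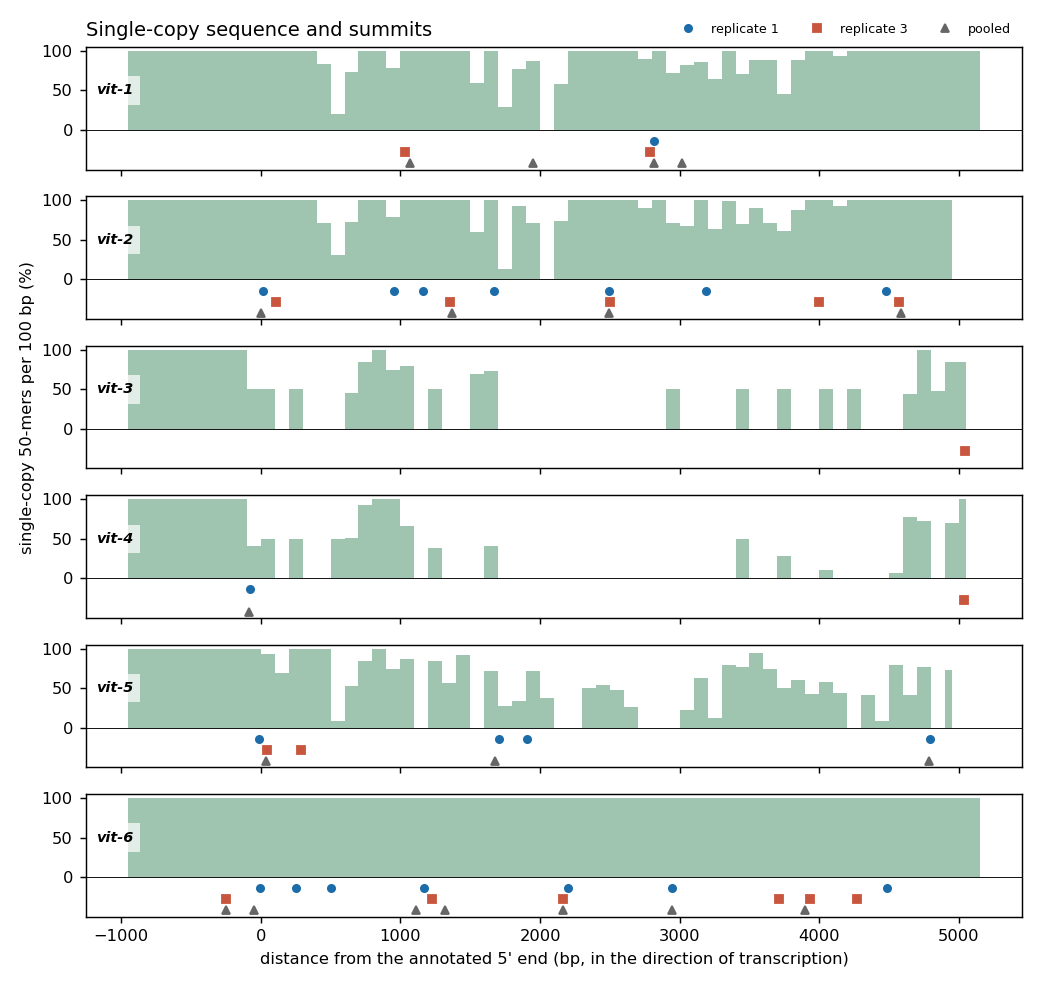
Percent of 50-base words that occur once in the genome, per 100 bp (y axis), against distance from the 5′ end (x axis), with the summits of 3 lists as symbols under each profile. Long stretches of the third exon of vit-3 and vit-4 have no single-copy word, and that exon has no summit in either gene, while vit-6 is at 100% throughout.

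The upstream parts were better resolved. From 1000 bp upstream to 200 bp downstream, single-copy words made up 86.8% in vit-3, 86.0% in vit-4, 99.0% in vit-5 and 100% in vit-1, vit-2 and vit-6. A thresholded peak there was absent for all 6 genes, where 12.3% of all genes had one. In vit-1, vit-2, vit-5 and vit-6 nearly all words of this span were single-copy. The cause of the absence was not tested. The regions listed at vit-3 and vit-4 lay where 72.5 to 77.4% of words were single-copy, and those inside vit-5 beyond 1000 bp where 36.1 to 46.9% were.

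The nearest thresholded peaks on X were at least 13234 bp from a vitellogenin gene. On the 5′ side they were 15387 bp from vit-2 (signal 199.9, nearest to the 5′ end of ets-5), 32024 bp from vit-5 (129.3, nearest to ZK563.2), 33348 bp from vit-3 and 41932 bp from vit-4 (374.9 for this shared peak, at −156 bp from the 5′ end of C18B2.4) and 220536 bp from vit-1 (95.1, nearest to lgc-11). On the 3′ side they were 13234 bp from vit-2 (117.7, nearest to the 5′ end of apl-1, an amyloid precursor-like gene) and 40799 bp from vit-1 (117.1, nearest to that of mec-7, a beta-tubulin gene of touch neurons). On IV, the nearest one on the 5′ side of vit-6 was 8103 bp away (212.0, nearest to the 5′ end of K07H8.7). Within 250000 bp of the window centre there were 3 peaks around vit-5, 5 around vit-3 and vit-4, 11 around vit-1, 13 around vit-2 and 17 around vit-6. A span of this length held 13.8 peaks on average over X and 15.1 over IV, so the counts around vit-3, vit-4 and vit-5 lay below the average and those around vit-1, vit-2 and vit-6 nearer to it. The spans around vit-3, vit-4 and vit-5 overlap and share peaks, so their counts are not separate observations.

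Genes whose products regulate, carry, take up or break down yolk were examined for comparison. Over 74 genes in 5 lists, 17 had a thresholded summit from 1000 bp upstream to 200 bp downstream (23%), against 12.3% of all genes. From 500 bp upstream to 100 bp downstream the count was 11 (14.9%), against 9.61% of all genes. The lists were chosen with earlier results of these data known and carry no test. Of 16 genes for uptake of yolk into oocytes, 8 had a peak (50%), and of 12 for assembly and secretion, 5 (41.7%). Some of these peaks, at rab-7, rab-11.1, rab-1 and rab-8, lay nearer to the 5′ end of another gene, and rab-11.1 is counted in both lists. The list of 19 other genes abundant in the adult intestine had 0. The uptake receptor gene rme-2 had no thresholded peak and a pooled region of 63.3, with 32.1 in replicate 1 and 29.9 in replicate 3.

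The uptake genes with a peak included several of the general endocytic machinery. The strongest was rab-7, a late endosome GTPase gene (608.1, at −763 bp, nearer to the 5′ end of W03C9.5), followed by the early endosome gene rab-5 (550.4 at −706 bp) and dpy-23, which encodes an adaptor subunit (359.8 at −310 bp). The dynamin gene dyn-1 had 290.7, the recycling gene rab-11.1 had 256.2 in a peak nearer to rpl-7, the clathrin heavy chain gene chc-1 had 117.5, the clathrin light chain gene clic-1 had 100.8 and chp-1 had 99.8. Each of these 8 also had a region near its 5′ end in both replicate lists. Best signals ran from 52.4 to 308.5 in replicate 1 and from 47.1 to 296.1 in replicate 3. The thresholded list was made from the replicate and pooled lists, so this presence followed from the choice and is no separate support.

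The secretion genes with a peak were the GTPase genes rab-1 (292.8, nearer to C39F7.5), rab-8 (215.5, nearer to D1037.1), rab-11.1 as above and sar-1 (159.9), and the COPII coat gene sec-24.1 (152.6). The gene dsc-4, which encodes the microsomal triglyceride transfer protein that loads lipid onto yolk particles, had no region of any list near its 5′ end. Of 7 lysosomal protease genes, 1 had a peak, the cathepsin L gene cpl-1 (91.7 at −87 bp).

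Among 21 regulators of yolk gene expression, 4 had a peak (19%). They were lin-28 (419.7 at −552 bp), an RNA-binding regulator of developmental timing, the nuclear hormone receptor gene nhr-49 (218.4), daf-16, the FOXO factor of insulin signalling (137.0), and the timing gene lin-14 (90.5). Other regulators on this list had no thresholded peak near their 5′ ends. The GATA factor gene elt-2 had a region near its 5′ end in replicate 3 (39.5) and none in replicate 1, the gene of the repressor MAB-3 had 57.1 pooled with 39.4 in replicate 1 and 19.4 in replicate 3, unc-62 had 23.6 in replicate 3 and none in replicate 1, and ceh-60 had none there in either replicate list.

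The genes closest to vit-2 in best signal were found by distance. By Euclidean distance over the log2 of the best signal in each of the 2 replicates, among 793 genes of similar window length with a region in both, they were slc-25A21 (56.2 in replicate 1 and 31.4 in replicate 3), Y57A10C.9 (53.7 and 31.3) and klp-19 (56.6 and 31.5), at distances of 0.08, where vit-2 had 54.8 and 33. The values of vit-2 come from different sites, its 5′ end in replicate 1 and exon 4 in replicate 3.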

How the data were processed

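ATTF-5 ChIP-seq of whole young adults was read from 4 peak lists in ce11 coordinates, in the narrowPeak format of 10 columns. Per the provenance notes deposited with the samples, the authors made each replicate list from that replicate's alignments and a control, the pooled list from both, and the thresholded list from these 3. The peak caller is not given in the sources used here, nor is read depth. The deposited signal value per region is the authors' enrichment in their own scale and was used as given. The deposited −log10 q described regions, and the deposited summit offsets gave summits. By its name, the thresholded list passed the authors' irreproducible discovery rate.

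Genes came from Ensembl release 115 and sequence from the RefSeq genome, both WBcel235. Summits were counted in windows, and summits within 100 bp were matched between replicates, with Python 3.11.15, pandas 2.3.3 and numpy 2.4.6. Like length meant a window within 10% of the members' shortest and longest. A 50-base word was single-copy when it occurred once on either strand of the genome. Gene identity came from global alignment (Biopython 1.88). Counting and word copy number were tested on simulated data. Each count is set beside the share of all genes, and no statistical test was made, as there is 1 group.

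Named genes were the 6 members, every listed pathway gene with a thresholded promoter peak, the nearest thresholded peaks of the members and the 3 genes nearest in signal to the strongest member. The other pathway genes given values (rme-2, dsc-4, elt-2, mab-3, unc-62 and ceh-60), C42D8.9 and K07H8.8 were named after their values were seen. The 1 listed gene that is not protein-coding (lin-4) and 1 symbol without a match (opt-2) were left out. The members and lists were chosen with earlier results of these data known. Alternatives changed windows, overlap rules, signal limits, matching distance and word length.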

Additional observations from a re-analysis of the deposited data

How the results depend on the processing

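The count of 0 vitellogenin genes with a thresholded summit was 0 under other upstream limits, with signal above the list median, with −log10 q of at least 2 and with close summits dropped. It was 1 with any shared base (16.4% of all genes) and 1 with windows to 500 bp past the gene end (an alternative chosen after seeing the data), in both cases vit-6 through its downstream peak. It ran from 0 to 1 with a replicate left out, where the 3331 strongest regions of the other list stood in: without replicate 3 the vit-2 5′ end was counted (14.8% of all genes). Leaving out a replicate gave 5 to 6 genes in place of the 5 of the pooled list. With −log10 q of at least 2 the counts fell to 1 gene (pooled), 1 (replicate 1) and 2 (replicate 3), where 30.2%, 28.8% and 31.3% of genes of like length (21.5%, 19.8% and 22.1% of all) held such a summit. With signal above the list median they were 4, 3 and 3, against 57.5%, 56.4% and 58.3% (40.2%, 40.8% and 40.7% of all). The 7 matched summits became 3 within 50 bp, 8 within 200 bp and 12 when regions had only to share a base. The median log2 ratio of the pairs was −0.28 after division by list medians. This division lowers the ratios of all matched summits by the same amount, so it cannot change how far the pairs lie from them. Yolk pathway genes with a peak numbered 11 from 500 bp upstream to 100 bp downstream (9.61% of all genes) and 23 (31.1%) to the gene end (15% of all genes). With words of 36 or 100 bases, single-copy shares were 33.1% and 48.8% for vit-3, 30% and 43.6% for vit-4 and 51.9% and 76.7% for vit-5. Of 61 alternatives, 47 were within the limits set (1.5 times for counts) and 14 were not. The 47 include the alternatives whose 0 was fixed in advance. The causes were not tested. No paired analysis was possible because there is 1 group. Without read depths, no limit of detection could be given.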

Other observations

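The stretch past the vit-6 end drew attention by its sequence. The inverted pair of 16 bases around the summit of the thresholded peak was noticed in the printed sequence and then counted in the thresholded and pooled lists, so the count was chosen after seeing the data. Within 100 bp of the summit, an exact inverted pair of at least 16 bases was found at 18 of 3331 thresholded peaks (0.540%) and at 125 of 26669 pooled regions below the lowest thresholded signal (0.469%), where the median longest pair was 7 bases in each. An inverted pair of this length was thus rare in both sets, at like shares.

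Where a 5′ region was listed, its place differed between genes and replicates. The 5′ summits of replicate 1 lay at 13 bp in vit-2, at −10 bp in vit-5, at −5 bp in vit-6 and at −78 bp in vit-4. Those of replicate 3 lay at 107 bp in vit-2, at 46 bp in vit-5 and at −250 bp in vit-6. The genes vit-1 and vit-3 had none in either replicate.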
